A study of Mus musculus with 128 samples.

Results

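Messenger RNA of single mouse embryos at the 8-cell stage was compared between 14 knockout embryos, which carried no functional copy of the histone demethylase gene Kdm4a from either parent, and 16 wildtype embryos, which carried a maternal copy alone. These 30 libraries were taken from 128 in the whole series, which also covered MII oocytes, 2-cell and 4-cell embryos. The members were every library labelled 8-cell, except knockout replicate 4, with 419 counts in all, and knockout replicate 7, described below. Knockout embryos, labelled m-/p-, came from Kdm4a knockout MII oocytes fertilized with Kdm4a knockout sperm. Wildtype embryos, labelled m+/p-, came from wildtype oocytes and the same kind of sperm, so the paternal allele was mutant in both groups. All were of the C57BL/6 strain and were collected 3.5 days post fertilization, both genotypes together, at a time set by the progress of the control embryos. A difference between embryos of the same developmental age and a difference in developmental age therefore cannot be told apart by the sampling alone. After removal of the zona pellucida, the coat of the egg, single embryos were lysed in separate tubes, amplified by a SMART-Seq method and sequenced. The labels name neither the mothers nor the deleted exons, so p-values measure the spread between embryos, some of which may be littermates.

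Kdm4a encodes a JmjC-domain enzyme that removes methyl groups from lysines 9 and 36 of histone H3. The mouse embryo starts on transcripts stored in the oocyte, destroys most of them around the 2-cell stage and replaces them with transcripts of its own genome. At the 8-cell stage the cells flatten against each other (compaction), become polarized and begin the separation into trophectoderm, the future placenta, and inner cell mass.

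The knockout embryos held more of the transcripts that wildtype embryos lose between the 2-cell and 4-cell stages, and less of those that wildtype embryos gain there. Of 34 genes tested from a list of p53 targets and apoptosis genes, 9 were higher, among them Mdm2, Ccng1, Cdkn1a, Pmaip1 and Plk2, and 3 were lower. Of 77 genes of the mitotic spindle and chromosome segregation tested, 13 were higher and 4 lower. Transcripts of cytosolic ribosomal proteins and of ribosome assembly that were called were all lower. Of 7301 genes tested with edgeR's quasi-likelihood test, 507 were higher in knockout embryos and 396 were lower at a Benjamini-Hochberg adjusted p under 0.05, hereafter called, which is 12.4% of the genes tested (6.94% higher and 5.42% lower). At least 2-fold differences were found for 182 of the higher genes (2.49% of genes tested) and 68 of the lower (0.931%). The median log2 fold change, knockout over wildtype, was 0.85 among higher genes, -0.65 among lower genes and 0.03 over all genes tested. No called gene separated the groups fully: the ranges of the 14 knockout and 16 wildtype embryos overlapped for all 903. Because whole embryos were measured, fewer cells of a type and less RNA per cell cannot be told apart.

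Library totals were 1519379 to 3919768 counts in knockout embryos (median 1819305) and 1534786 to 3089847 in wildtype embryos (median 2087144.5). Knockout replicate 7 stood apart: its Spearman correlation across genes was 0.767 with the mean wildtype MII oocyte and 0.30 with the mean wildtype 8-cell embryo, and its summed oocyte markers reached 3263 CPM (a gene's count scaled by its library total), against 42.4 to 155 CPM in the other knockout embryos and 21.5 to 104 CPM in wildtype embryos. With it included, 617 genes were higher and 218 lower. Among the members kept, knockout replicate 16 correlated better with the wildtype 4-cell mean (0.894) than with the 8-cell mean (0.869), and knockout replicate 11 had 0.879 with the 8-cell mean, against 0.906 to 0.938 in the other knockout embryos and 0.920 to 0.931 in wildtype embryos. Without replicates 11 and 16, 493 genes were higher and 428 lower. A list of 12 markers of the 8-cell embryo or morula summed to 673 to 1817 CPM in knockout embryos and 1337 to 2348 CPM in wildtype embryos, with Cdx2 at 0 counts in every wildtype embryo. Markers of other cells were low: 26 cumulus and granulosa genes summed to 2.83 to 14.5 CPM in knockout and 2.91 to 20.2 CPM in wildtype embryos, with 12 at 0 in each group. The 20 blood markers summed to 5.62 to 29.6 CPM in knockout embryos and 3.70 to 35.8 CPM in wildtype embryos, with 8 at 0 in knockout and 10 in wildtype embryos. The 22 sperm markers summed to 10.7 to 73.0 CPM in knockout embryos and 5.97 to 32.4 CPM in wildtype embryos, with 10 at 0 in knockout and 9 in wildtype embryos. Their part in the results was not tested.

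Kdm4a itself (chr4:118136957-118180043, minus strand, mm10) was near the detection floor in both groups at this stage and was too low for the test across genes. It averaged 2.13 ± 2.23 CPM in knockout embryos (SD, n = 14; 0 to 6.29) and 1.31 ± 1.16 CPM in wildtype embryos (SD, n = 16; 0 to 3.40), with 3 knockout and 6 wildtype libraries at 0 counts. A count of 0 allows up to 0.765 to 1.97 CPM in knockout and 0.971 to 1.95 CPM in wildtype libraries, counting error only. The groups overlapped fully at the low end, and the difference of 0.82 CPM gave a two-sided permutation p of 0.209. The level at the 8-cell stage therefore does not separate the labels, whereas at earlier stages the means were farther apart. They were 1.27 CPM in knockout and 10.9 CPM in wildtype MII oocytes (log2 fold change -3.0, called), 2.65 CPM in knockout and 15.1 CPM in wildtype 2-cell embryos (-2.42, called), and 1.76 CPM in knockout and 4.59 CPM in wildtype 4-cell embryos, too low to be tested (n = 16 each). Counts from exons outside the deletion would be included in these values.

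The clearest shift was in transcripts that leave the wildtype embryo between the 2-cell and 4-cell stages. This set of 2837 genes was defined in the wildtype 2-cell and 4-cell libraries alone (edgeR, adjusted p under 0.01 and a log2 change of 2 or more in size), so no 8-cell library entered its definition. Its share of all counts was 3.70 to 4.47% in knockout embryos (mean 4.09 ± 0.25, SD, n = 14) and 2.88 to 3.48% in wildtype embryos (mean 3.29 ± 0.16, n = 16). All 14 knockout embryos lay above the highest wildtype embryo. The wildtype 4-cell embryos spanned 2.90 to 5.85% with a median of 3.40%, near the wildtype 8-cell median of 3.34%. The knockout values fell inside the 4-cell range, but so did nearly all wildtype 8-cell values, so that range does not tell the groups apart. Without the 20 highest members the shares were 2.76 to 3.50% in knockout and 2.17 to 2.64% in wildtype embryos, again with 14 of 14 above the wildtype maximum. Of the 924 members tested, 127 were higher and 11 lower, with a median log2 fold change of 0.30. A low member could enter the test through the group where it was high, which may tilt these counts and the median. The set held 25% of all higher genes, 2.78% of all lower genes and 12.7% of the genes tested.

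The genes of this set with the smallest p included regulators of division and of chromatin. Pttg1, the securin that holds back sister-chromatid separation, lay at 340, 551 and 973 CPM in knockout embryos (lowest, median and highest) and at 62.5, 240 and 459 CPM in wildtype embryos. All 14 knockout embryos were above the wildtype median and 12 were above the wildtype maximum. Its log2 fold change was 1.23 (SE 0.18; adjusted p = 4.25e-05), and its wildtype mean had fallen to 413 CPM at the 4-cell stage, against 4661 CPM at the 2-cell stage. Arid2, a subunit of the PBAF chromatin-remodelling complex, lay at 20.4, 42.7 and 107 CPM in knockout and at 1.6, 14.1 and 27.9 CPM in wildtype embryos. That is a log2 fold change of 1.75 (SE 0.26; adjusted p = 8.48e-05), with 13 of 14 knockout embryos outside the wildtype range. Psip1, a chromatin reader that binds methylated H3K36, had a median of 48.2 CPM in knockout and 24.8 CPM in wildtype embryos (log2 fold change 1.09). The tyrosine kinase Jak2 had medians of 34.5 CPM in knockout and 10.8 CPM in wildtype embryos (log2 fold change 1.68). Fkbp1a, a prolyl isomerase, Vamp4, a vesicle-fusion protein, Arap2, a GTPase-activating protein, and Gnb1, a G-protein subunit, had log2 fold changes of 0.80, 1.57, 1.53 and 1.22. Of the Pttg1 values 53.5% were not whole numbers, which shows reads shared with other loci, so its level is less certain than that of Arid2 (37.0%).

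The opposite held for the 1660 genes that wildtype embryos gain between the 2-cell and 4-cell stages. They made up 39.2 to 45.9% of counts in knockout embryos (mean 42.7 ± 2.17, SD, n = 14) and 43.1 to 47.5% in wildtype embryos (mean 45.5 ± 1.2, n = 16). Only 1 of 14 knockout embryos lay above the wildtype median, and 6 lay below the wildtype minimum. Of 1645 members tested, 57 were higher and 195 lower, with a median log2 fold change of -0.12. The set held 49.2% of all lower genes, 11.2% of all higher genes and 22.5% of the genes tested. Bcas3, which encodes a protein of autophagy and cell migration, lay at 131, 227 and 289 CPM in knockout and at 275, 375 and 461 CPM in wildtype embryos, and 11 knockout embryos were below the wildtype minimum. Its log2 fold change was -0.73 (SE 0.11; adjusted p = 1.26e-04). Hif1an, the asparagine hydroxylase that inhibits HIF1A, had medians of 56.6 CPM in knockout and 113 CPM in wildtype embryos (log2 fold change -1.14). Mplkip, Cops6, a subunit of the COP9 signalosome, and Wipi2, an autophagy protein, had log2 fold changes of -0.88, -0.68 and -0.66. Transcripts that wildtype embryos gain between the MII and 2-cell stages (1228 genes) were 18.3 ± 0.75% of counts in knockout and 19.8 ± 0.66% in wildtype embryos, with no knockout embryo above the wildtype median. Its 768 members tested went both ways, 59 higher and 69 lower, with a median log2 fold change of -0.02.

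**Figure D1:**
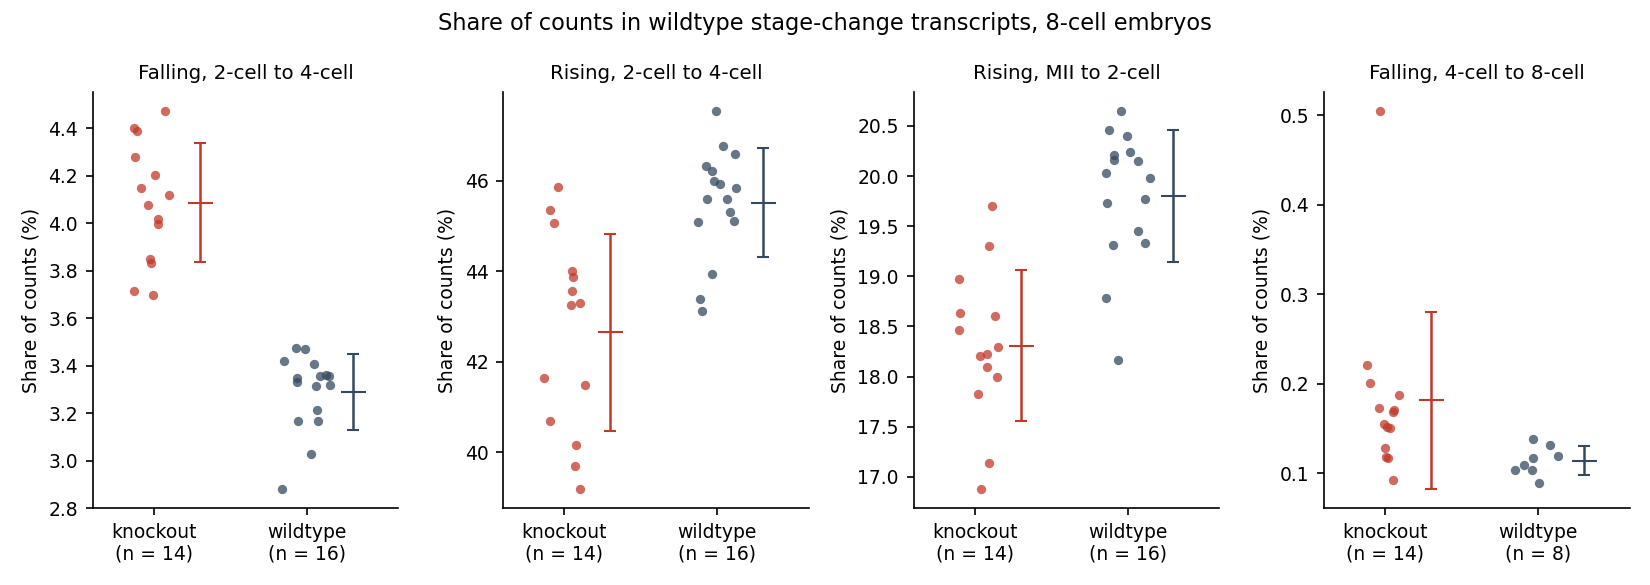
Share of all counts (percent) taken by the stage sets, with 1 point for each 8-cell embryo, knockout (n = 14) left of wildtype (n = 16, or the 8 even-numbered embryos for the sets of the 4-cell to 8-cell step), and the mean with SD. All knockout embryos sit at 3.70% or more for genes that fall between the 2-cell and 4-cell stages, above the wildtype maximum of 3.48%.

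The step into the 8-cell stage was examined with a split of the wildtype libraries. With the step defined in odd-numbered wildtype libraries and the share read in the 8 even-numbered ones, 95 rising genes made up 0.487 ± 0.117% of counts in knockout and 0.607 ± 0.082% in wildtype embryos (SD). The 85 falling genes made up 0.181 ± 0.099% of counts in knockout and 0.114 ± 0.016% in wildtype embryos, and 10 of 14 knockout embryos lay above the wildtype maximum. Of the 56 falling genes tested, 18 were higher and 1 lower (median log2 fold change 0.83). Here too a low member could enter the test through the group where it was high. Of the 95 rising genes none was higher and 18 were lower (-0.26). The step was also defined in even-numbered libraries and read in the odd-numbered ones. There 156 rising genes made up 0.789 ± 0.188% of counts in knockout and 0.884 ± 0.122% in wildtype embryos. The 116 falling genes made up 0.214 ± 0.122% in knockout and 0.142 ± 0.025% in wildtype embryos, with 7 of 14 knockout embryos above the wildtype maximum. Knockout minus wildtype, the difference was smaller than in the first split for the rising set (-0.095 against -0.119 percentage points). For the falling set it was not (0.073 against 0.068). In the first split, knockout replicate 16 had both the lowest share of the rising set (0.192%) and the highest of the falling set (0.505%, close to the wildtype 4-cell median of 0.510%). Without it the shares of the first split were 0.510 ± 0.084% and 0.156 ± 0.036% in 13 knockout embryos, and 9 of 13 still lay above the wildtype maximum of the falling set.

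A list of p53 targets and apoptosis genes, hereafter the p53 list, formed the next group. The transcription factor p53, encoded by Trp53, is held low by the ubiquitin ligase Mdm2 and its partner Mdm4, and when released it induces genes of cell-cycle arrest and of apoptosis, Mdm2 itself included. Of 62 listed genes 28 were too low to be tested, and a low gene could enter the test through the group where it was high. Of the 34 tested, 9 were higher, 3 were lower and 22 did not pass, and the median log2 fold change was 0.37, against 0.03 over all genes tested. All 62 together took 0.313, 0.451 and 0.637% of counts in knockout embryos (lowest, median and highest) and 0.332, 0.430 and 0.556% in wildtype embryos, so the summed levels overlapped. The promoters of 3 of the higher genes are shown because a match to the p53 consensus element (10 bases, which counts as a single element) lay within the 300 bases from 250 before to 50 after the transcription start. The sequences are from RefSeq on GRCm38.p6, written 5′ to 3′ along the gene, with the match in capitals: chr17:29090729-29091028 on the plus strand for Cdkn1a, chr10:117710709-117711008 on the minus strand for Mdm2 and chr11:40755237-40755536 on the minus strand for Ccng1.
Cdkn1a: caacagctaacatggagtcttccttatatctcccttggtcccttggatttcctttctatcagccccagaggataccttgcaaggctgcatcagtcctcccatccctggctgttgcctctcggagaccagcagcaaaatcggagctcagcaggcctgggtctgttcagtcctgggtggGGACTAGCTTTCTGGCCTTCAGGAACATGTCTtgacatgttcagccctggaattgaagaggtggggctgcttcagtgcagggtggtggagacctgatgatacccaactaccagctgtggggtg
Mdm2: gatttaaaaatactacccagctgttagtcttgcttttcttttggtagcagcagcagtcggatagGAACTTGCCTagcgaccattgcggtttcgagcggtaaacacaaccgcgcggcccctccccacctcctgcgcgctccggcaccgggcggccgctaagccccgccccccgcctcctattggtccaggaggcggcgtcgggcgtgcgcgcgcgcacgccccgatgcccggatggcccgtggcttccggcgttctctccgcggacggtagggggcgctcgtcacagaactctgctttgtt
Ccng1: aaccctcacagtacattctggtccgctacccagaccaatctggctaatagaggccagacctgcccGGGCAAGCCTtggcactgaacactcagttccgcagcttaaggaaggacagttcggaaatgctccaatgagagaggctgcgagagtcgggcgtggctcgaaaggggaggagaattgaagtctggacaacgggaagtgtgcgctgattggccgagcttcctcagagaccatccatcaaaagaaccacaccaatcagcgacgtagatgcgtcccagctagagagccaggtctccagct
The Cdkn1a match was a full site of 32 bases, made of a pair of elements and a spacer, from position -73 to -42 relative to the start, and the elements of Mdm2 and Ccng1 lay at -186 to -177 and -185 to -176. Both strands were searched, with a spacer of up to 13 bases. The promoter of Mdm2 that is known to respond to p53 lies in an intron, outside this window. Promoters were found in the RefSeq table for 7 of the 9 higher genes. A single element was present in 3 of these 7 promoters (42.9%) and in 10 of the 27 promoters found for all p53-list genes tested (37.0%). The 7 are part of the 27, and so few promoters cannot show whether the element is particular to the higher genes. A single element was present in 9.55% of all promoters of the table and a full site in 0.0740%, and a match is a description of letters, not evidence of binding.

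Among the regulators of p53, Mdm2 lay at 41.8, 96.6 and 338 CPM in knockout embryos (lowest, median and highest) and at 6.95, 48.8 and 96.7 CPM in wildtype embryos. The ranges overlapped, and 12 of 14 knockout embryos were above the wildtype median. The log2 fold change was 1.39 (SE 0.28; adjusted p = 0.00133). Mdm4, at 95.3, 181 and 716 CPM in knockout and 95.9, 143 and 227 CPM in wildtype embryos, had a log2 fold change of 0.75. Trp53 itself averaged 12.8 CPM in knockout and 8.79 CPM in wildtype embryos and did not pass (log2 fold change 0.50, SE 0.35, adjusted p = 0.352). Trp53inp1, a p53 cofactor and target, lay at 38.7, 107 and 179 CPM in knockout and 5.99, 43.0 and 63.8 CPM in wildtype embryos, with 12 knockout embryos above the wildtype maximum (log2 fold change 1.27, adjusted p = 6.35e-04).

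The cell-cycle targets given here are members called higher, so their shared direction follows from that choice. Cdkn1a, the p21 inhibitor of cyclin-dependent kinases, lay at 12.6, 31.8 and 117 CPM in knockout and 8.26, 18.6 and 42.1 CPM in wildtype embryos (log2 fold change 1.10, SE 0.27, adjusted p = 0.00584). Ccng1, a cyclin that acts back on Mdm2, lay at 36.7, 197 and 687 CPM in knockout and 0, 72.2 and 140 CPM in wildtype embryos. Its log2 fold change was 1.56 (adjusted p = 0.0186); 8 knockout embryos were above the wildtype maximum, while only 9 of 14 were above the wildtype median, so the group was spread widely. Plk2, a polo-like kinase, had medians of 43.7 CPM in knockout and 9.75 CPM in wildtype embryos (log2 fold change 2.09, adjusted p = 0.0038). Sesn2, a sestrin that restrains mTOR, had a log2 fold change of 1.24 (adjusted p = 0.0273), and its call was lost without knockout replicate 5 (adjusted p = 0.0529) or 16 (0.0586).

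On the apoptosis side the list did not move one way. Pmaip1, the BH3-only protein Noxa that promotes cell death, lay at 0, 20.9 and 65.0 CPM in knockout and 0, 3.80 and 17.1 CPM in wildtype embryos, and 9 of 14 knockout embryos exceeded every wildtype embryo. Its log2 fold change of 2.47 (SE 0.55; adjusted p = 0.00301) was matched among the higher genes named here by that of Trap1a alone. Xiap, an X-linked inhibitor of caspases, was also higher (log2 fold change 0.89, adjusted p = 0.0278), a call lost without knockout replicate 2 (adjusted p = 0.051) or 8 (0.0588). The caspase activators Cycs, which encodes cytochrome c, and Diablo were lower (log2 fold changes -0.55 and -0.37), as was the survivin gene Birc5 (-0.48). Nearly all Cycs values (98.4%) and most Diablo values (83.5%) were not whole numbers, so reads shared with other copies weigh on both.

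The embryos differed in how many of these genes were high. Of the 9 higher members, which were chosen by this comparison so that their count is a description, a knockout embryo had a median of 5 above every wildtype embryo, from 0 in replicate 6 to 8 in replicates 1 and 12. A wildtype embryo had a median of 0, and at most 3, above every other wildtype embryo. At the 4-cell stage the same genes had log2 fold changes of 0.56 (Mdm2), 0.44 (Cdkn1a), 0.97 (Pmaip1), 0.28 (Plk2) and 0.43 (Trp53inp1), none of which was called there, and the difference between the stages was not called for any of these 5.

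**Figure D2:**
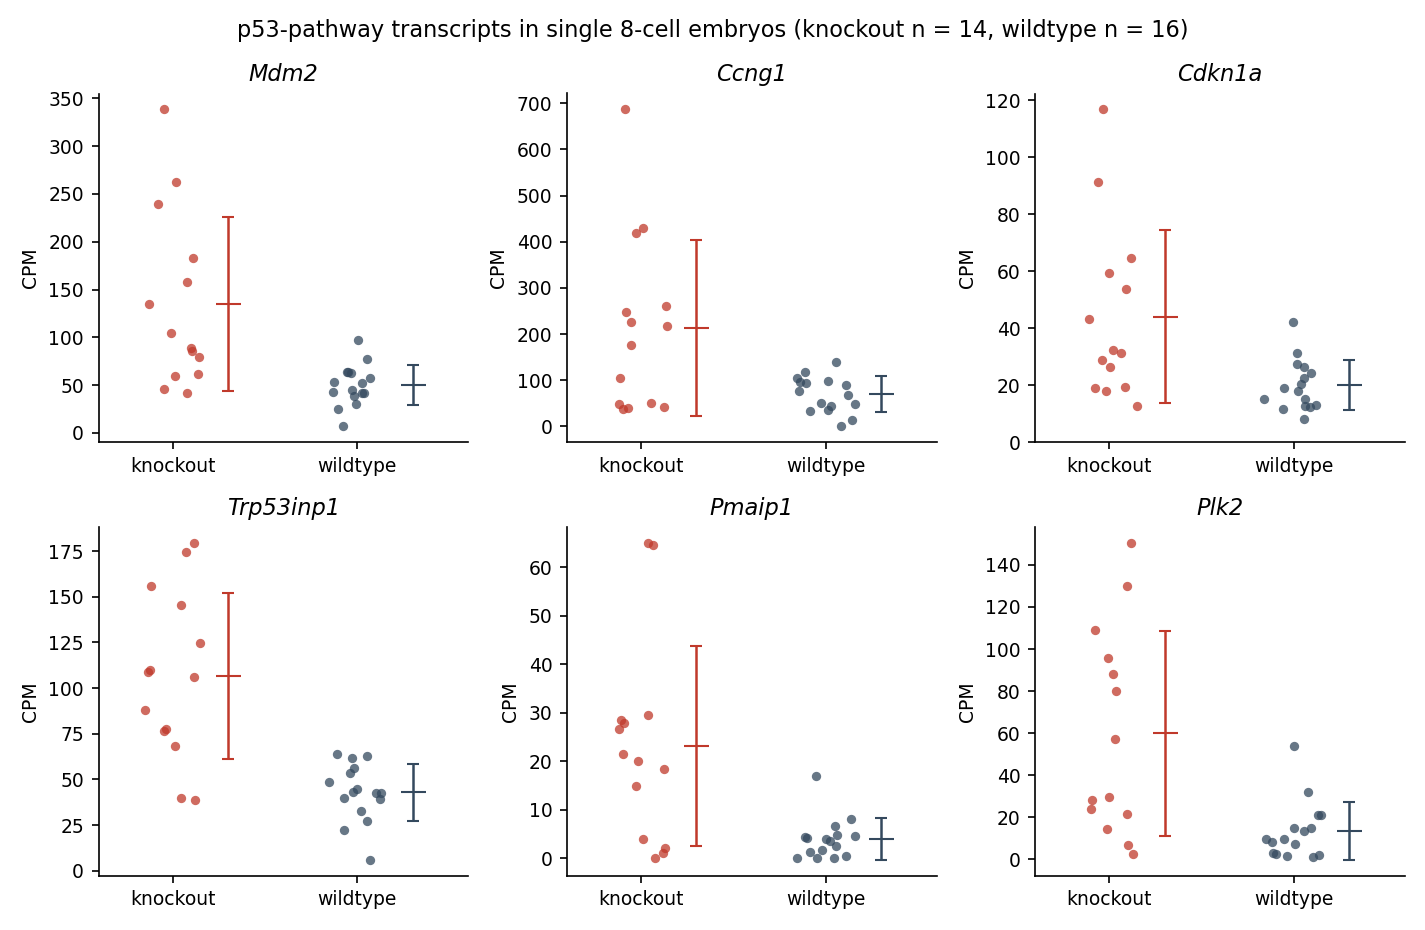
Level in CPM of 6 transcripts of the p53 pathway in each 8-cell embryo, knockout (n = 14) left of wildtype (n = 16), with the mean and SD. The knockout medians are 96.6 CPM for Mdm2 and 197 CPM for Ccng1, against 48.8 and 72.2 CPM in wildtype embryos, and the ranges overlap in every panel.

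Genes of the mitotic spindle and chromosome segregation were more often higher than lower: 13 of 77 tested were higher (16.9%) and 4 lower (5.19%), with a median log2 fold change of 0.11. Of all genes tested, 6.94% were higher and 5.42% lower. Some calls of the list were near the threshold. That of Bub1 was lost without any 1 of 18 libraries (adjusted p = 0.0522 to 0.0724) and that of Cdca8 without any 1 of 15 (0.0502 to 0.0811). That of Ccnb2 was lost without either of 2 libraries (0.0514 and 0.0535). Besides Pttg1, the higher genes included genes of the centromere and kinetochore. Cenpa, the histone H3 variant of centromeres, lay at 73.9, 148 and 299 CPM in knockout and 53.1, 81.0 and 121 CPM in wildtype embryos (log2 fold change 0.94, SE 0.17, adjusted p = 5.05e-04). The NDC80-complex subunits Spc25 and Spc24 had log2 fold changes of 0.83 and 0.97. Aurkb, the kinase of the chromosomal passenger complex, was higher (0.73), while its partner Birc5 was lower. Subunits of the anaphase-promoting complex, the ligase that Pttg1 is a substrate of, were split: Cdc26 was higher (log2 fold change 1.55, at only 5.27 to 10.3 CPM in knockout and 0.375 to 7.82 CPM in wildtype embryos) and Anapc13 and Anapc16 were lower (-0.90 and -0.53). Cenpw, another centromere protein, was lower at both stages (-0.86 here and -1.03 in 4-cell embryos). Of 52 DNA replication factors tested, the primase subunit Prim2 was higher (0.84), the clamp loader subunit Rfc4 lower (-0.62), and the other 50 did not pass.

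Called genes of the protein-synthesis machinery were mostly lower, whereas 6.94% of all genes tested were higher and 5.42% lower. None of 83 cytosolic ribosomal protein genes was higher and 13 were lower, with a median log2 fold change of -0.23 and 75 of 83 below 0. The changes were small: Rps3 lay at 238, 323 and 431 CPM in knockout and 276, 409 and 561 CPM in wildtype embryos (log2 fold change -0.39, SE 0.10, adjusted p = 0.00893), and 13 of 14 knockout embryos were below the wildtype median. Most of these calls were near the threshold: 10 of the 13, all but Rps3, Rps26 and Rpsa, were lost when 1 library was left out. Among 91 genes of ribosome assembly and the nucleolus, 10 were lower and none higher (median -0.19). They included the rRNA transcription factor Ubtf (log2 fold change -0.83; 13.4, 38.9 and 87.8 CPM in knockout and 43.2, 68.3 and 107 CPM in wildtype embryos), the RNA polymerase subunit Polr1d (-0.50), the helicase Ddx47 (-0.81) and the assembly factors Ebna1bp2 (-0.48), Noc4l (-0.69) and Mybbp1a (-0.74). Of 58 translation factors 9 were lower (15.5%) and 2 higher (3.45%). The lower ones held 6 subunits of eIF3, among them Eif3h (-0.59) and Eif3g (-0.35). The call of Eif3m was lost without any 1 of 20 libraries (adjusted p = 0.0521 to 0.0812) and that of Eif3l without any 1 of 9 (0.0524 to 0.0661). The higher ones were Eif4a2 (0.63) and Eif4ebp1 (0.90), the repressor of cap-dependent translation that mTOR inactivates. Mlst8, a subunit of the mTOR complexes, was lower (-1.07; 6.14, 17.6 and 40.8 CPM in knockout and 19.1, 35.8 and 58.3 CPM in wildtype embryos).

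**Figure D3:**
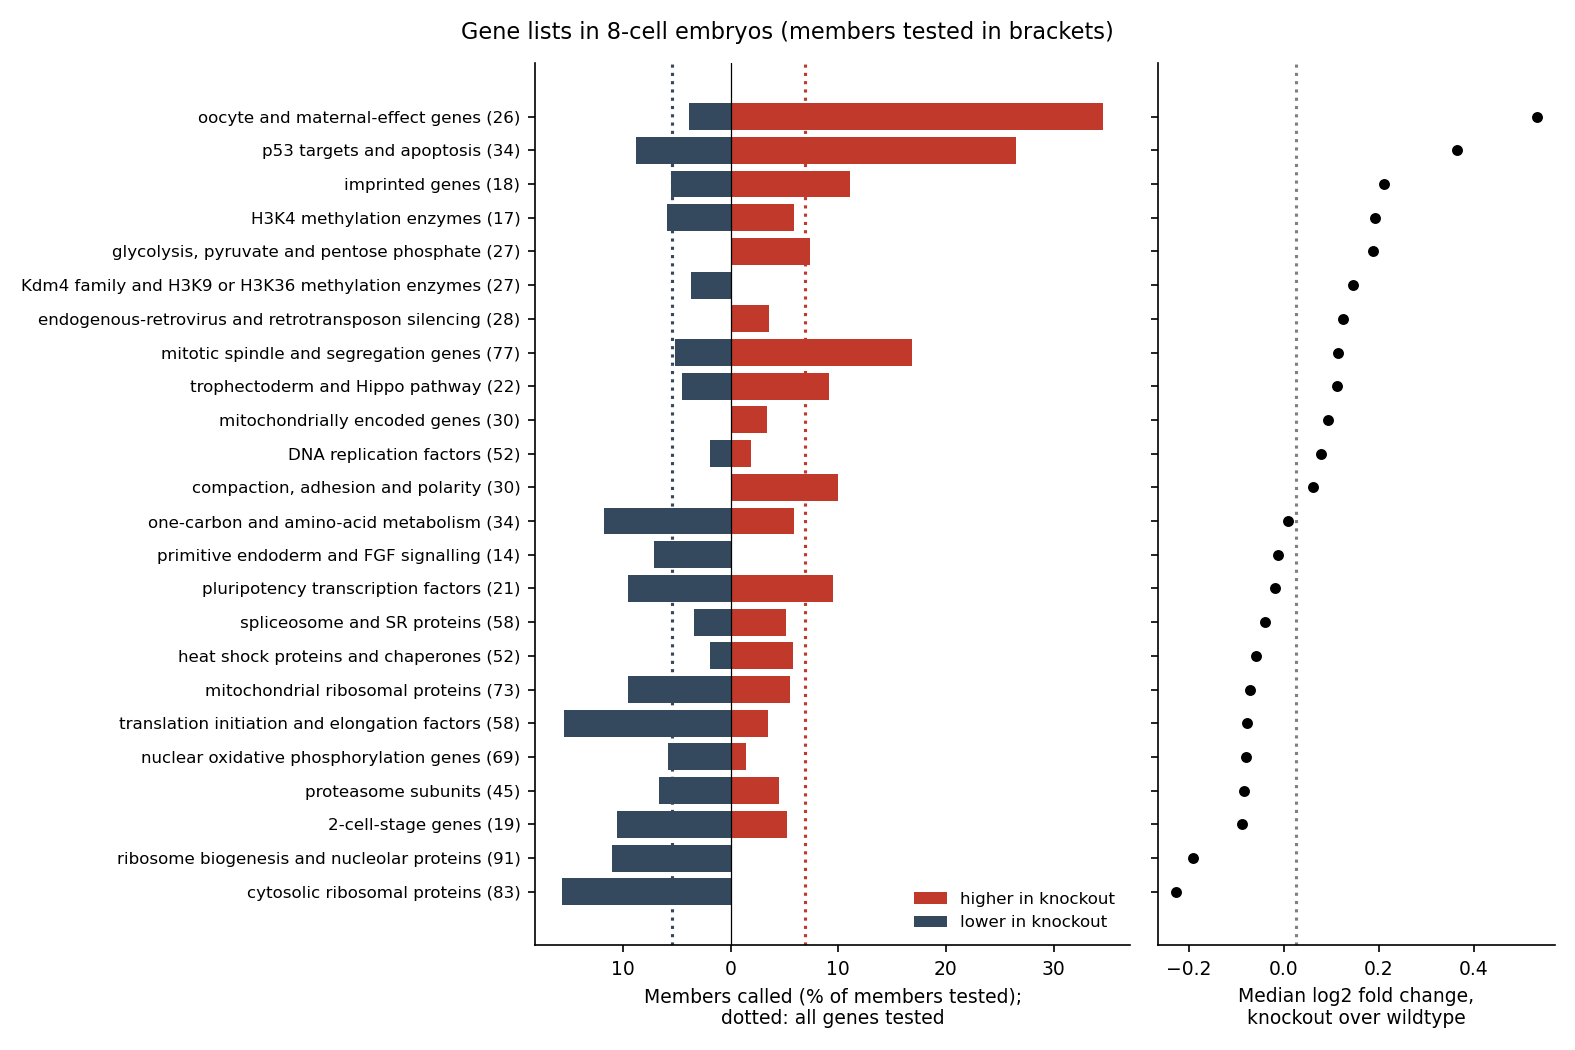
Left, members of each gene list called higher (right of 0) or lower (left of 0) in knockout embryos, in percent of members tested, whose number is in brackets. Right, the median log2 fold change of the members, knockout over wildtype; dotted lines mark all genes tested (6.94% higher, 5.42% lower, median 0.03). Lists with fewer than 14 members tested are not drawn. Of those drawn, the oocyte and p53 lists have the highest medians, 0.53 and 0.37, and the cytosolic ribosomal proteins the lowest, -0.23.

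Of 80 listed oocyte transcripts, 54 were too low to be tested. Of the 26 tested, 9 were higher and 1 lower (median log2 fold change 0.53), and a low gene could enter the test through the group where it was high. The share of counts taken by all 80 overlapped almost fully: 0.713, 0.886 and 1.16% in knockout embryos (lowest, median and highest) and 0.713, 0.876 and 1.15% in wildtype embryos. The higher members came mostly from multi-copy families of the oocyte. Nlrp4c lay at 5.04, 69.3 and 112 CPM in knockout and 0, 12.9 and 82.0 CPM in wildtype embryos (log2 fold change 1.64), Nlrp9c had 1.18, and the F-box genes Fbxw19, Fbxw24 and Fbxw28 had 1.72, 1.47 and 1.65. Fbxw28 and Accsl, of an ACC-synthase-like family (1.56), were low, with medians of 10.8 and 8.49 CPM in knockout and 2.80 and 2.70 CPM in wildtype embryos. Oosp1, an oocyte-secreted protein, had 1.93, and Cnot7, a deadenylase that shortens mRNA tails, 0.54. Between 88.8 and 94.4% of the Fbxw values were not whole numbers, so reads are shared within that cluster and the separate values are uncertain. Padi6, a maternal-effect gene of the oocyte lattices, was lower (-0.91), a call lost without wildtype replicate 1 (adjusted p = 0.0554) or 9 (0.0556). The call of Nlrp14 (0.87, adjusted p = 0.0378) was lost without any 1 of 14 libraries (0.0504 to 0.0769). Of these, Nlrp4c (2.35), Nlrp9c (1.46), Nlrp14 (0.74), Oosp1 (1.68), Accsl (1.63) and the 3 Fbxw genes (1.40 to 1.61) were also called higher in 4-cell knockout embryos.

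Called genes were 4 of 21 tested in the pluripotency list, 3 of 22 in the list of trophectoderm and Hippo genes, 1 of 14 in that of primitive endoderm and FGF genes and 3 of 30 in that of compaction and polarity, against 12.4% of all genes tested. In the pluripotency list, Myc and Tbx3 were higher and Nanog and Dppa5a lower. The call of Tbx3 (0.99) was lost without any 1 of 16 libraries (adjusted p = 0.051 to 0.085) and that of Dppa5a (-0.42) without any 1 of 13 (0.0504 to 0.0651). Nanog, the homeobox factor of the inner cell mass, lay at 1.12, 15.1 and 29.9 CPM in knockout and 4.53, 32.4 and 62.9 CPM in wildtype embryos, and all 14 knockout embryos were below the wildtype median (log2 fold change -0.91, SE 0.29, adjusted p = 0.0304). Its values were not whole in 93.3% of cases, as near-identical Nanog copies exist in the genome, and the call was lost without wildtype replicate 7 (adjusted p = 0.0504) or 9 (0.055). Pou5f1 averaged 7.72 CPM in knockout and 7.70 CPM in wildtype embryos (log2 fold change 0.00, SE 0.32), and Klf5 averaged 129 CPM in knockout and 107 CPM in wildtype embryos (0.23, SE 0.19, adjusted p = 0.449). In the Hippo pathway, which reads cell position, the scaffold Sav1 was higher (1.72; medians 10 CPM in knockout and 3.38 CPM in wildtype embryos) and the kinase it binds, Stk4, was lower (-0.65; medians 92.7 CPM in knockout and 143 CPM in wildtype embryos). The third call in that list was Tfap2c, a transcription factor of the trophectoderm, which was higher (0.61, adjusted p = 0.0364), a call lost without any 1 of 11 libraries (0.0525 to 0.0646). Yap1 (-0.12, SE 0.17) and Tead4 (-0.39, SE 0.17, adjusted p = 0.12) did not pass. Of the primitive endoderm and FGF genes only Map2k1, a MAP kinase kinase, was called (-0.55). Among genes of compaction and polarity, Rdx, which encodes the cortex linker radixin, was higher (log2 fold change 1.07; medians 52.0 CPM in knockout and 18.3 CPM in wildtype embryos), as were the polarity scaffold Mpp5 (1.14) and the claudin Cldn7 (1.09, a call lost without any 1 of 13 libraries, adjusted p = 0.0505 to 0.0739), while Cdh1, the E-cadherin of compaction, averaged 23.8 CPM in knockout and 20.2 CPM in wildtype embryos (0.21, SE 0.18).

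Calls among chromatin genes are given list by list, beside 6.94% higher and 5.42% lower of all genes tested. The lists with 8 and 6 genes tested are too short to be set against those shares. Of 27 genes of the Kdm4 family and of H3K9 or H3K36 methylation, Kdm3a, an H3K9 demethylase, was lower (-0.54, SE 0.14, adjusted p = 0.0114; 84.1, 114 and 189 CPM in knockout and 92.9, 165 and 228 CPM in wildtype embryos). Kdm4c, the relative of Kdm4a, averaged 137 CPM in knockout and 121 CPM in wildtype embryos and did not pass (0.14, SE 0.15). Of 17 H3K4 methylation genes, Kmt2e was higher (1.17) and Wdr5, a shared subunit of the methyltransferase complexes, lower (-0.52). None of 8 genes of DNA methylation and its protection and none of 6 histone genes was called. Of 28 genes that silence retroviral elements, Mga, a subunit of a Polycomb-type repressor, was higher (0.89); the call was lost without knockout replicate 2 (adjusted p = 0.0624), knockout replicate 16 (0.0686), wildtype replicate 7 (0.0504) or wildtype replicate 10 (0.0519).

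The largest changes reached beyond these lists. Among the 15 higher genes of largest fold, Trap1a, a tumour rejection antigen gene on the X chromosome, lay at 6.71, 26.4 and 206 CPM in knockout and 0, 6.76 and 21.4 CPM in wildtype embryos (log2 fold change 2.47, SE 0.46). Erbb2ip, which encodes the scaffold erbin, had 2.22, Gclc, the catalytic subunit of glutathione synthesis, 1.81, Stx3, a membrane-fusion syntaxin, 1.81, and Mael, a germ-cell factor of transposon silencing, 1.80. Oxct1, the enzyme that uses ketone bodies, had 2.00, and knockout replicate 5 decided its call (1.29, adjusted p = 0.123, without it). Among lower genes, Siglecg, a sialic-acid receptor of B cells, had a log2 fold change of -3.55 (SE 0.46; adjusted p = 8.06e-06), with 0, 0.839 and 5.13 CPM in knockout and 4.39, 13.8 and 44.0 CPM in wildtype embryos. With 5 of 14 knockout libraries at 0 counts, that fitted value depends on the prior count. Dynap lay at 4.85, 66.8 and 154 CPM in knockout and 116, 268 and 542 CPM in wildtype embryos, and 12 of 14 knockout embryos were below the wildtype minimum (log2 fold change -2.15, SE 0.37, adjusted p = 3.93e-04). Prl3b1, of the placental prolactin family, had -1.57, Dcc, the netrin receptor, -1.40, and Vnn1, a pantetheinase, -1.22. Fdps, an enzyme of the cholesterol pathway, was higher (1.35, SE 0.19), but its values are nearly those of the overlapping clone-named gene RP24-394C15.7 (1.32), so the 2 cannot be told apart.

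**Figure D4:**
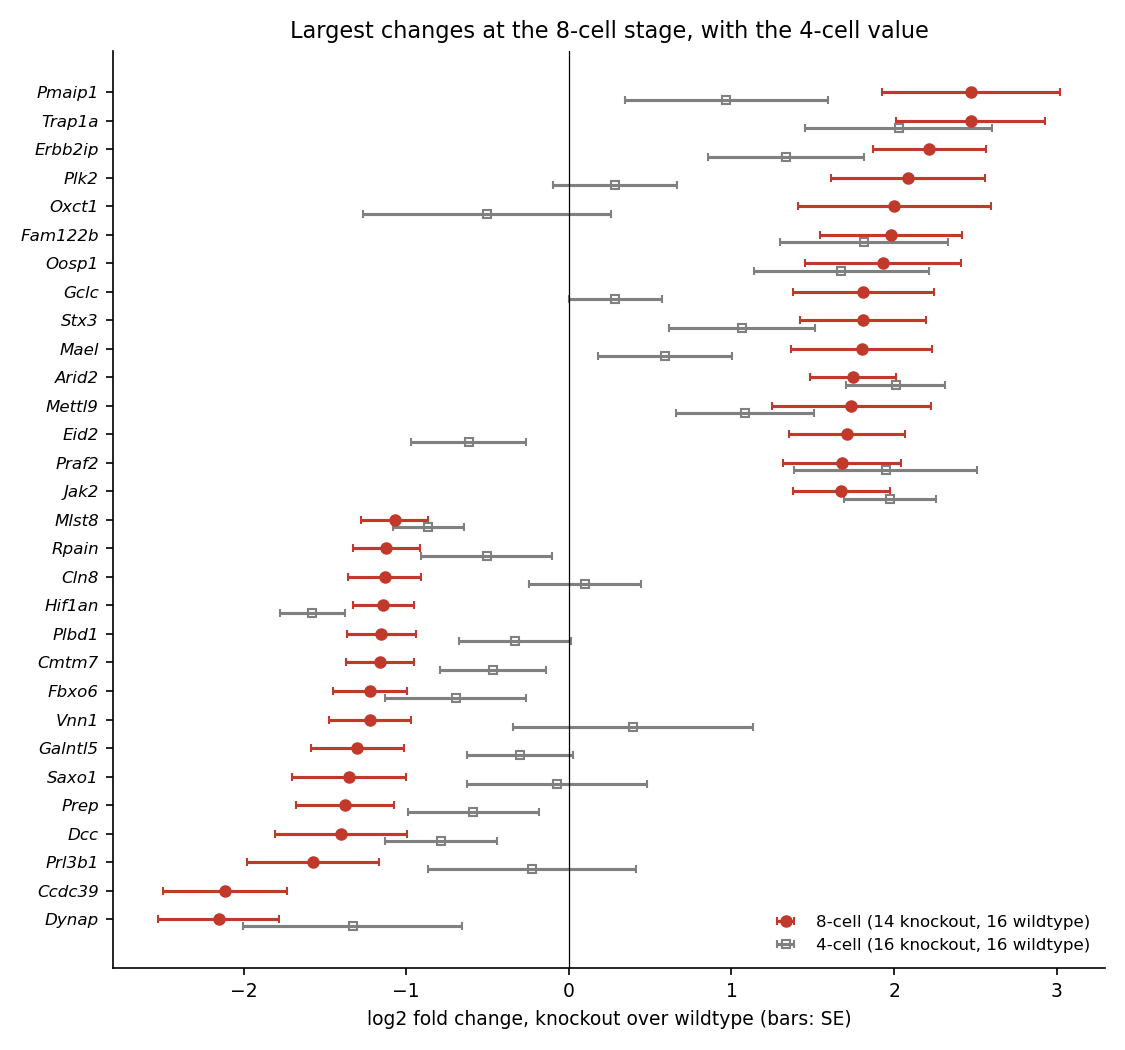
Log2 fold change, knockout over wildtype, of the 15 higher and 15 lower named genes of largest change in 8-cell embryos (filled circles; 14 knockout, 16 wildtype) and the value of the same genes in 4-cell embryos (open squares; 16 of each), with bars for the SE. Ccdc39 has no 4-cell value because it was too low to be tested there. Arid2 and Jak2 lie at 2.01 and 1.97 in 4-cell embryos, near their 8-cell values of 1.75 and 1.68, while Eid2 lies at -0.62 and 1.71.

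Sex-linked transcripts were unevenly spread over the groups. Transcripts of the Y-linked gene Eif2s3y were present in 6 of 14 knockout and 11 of 16 wildtype embryos, and the X-linked silencing RNA Xist was at 201 to 545 CPM in the 8 knockout embryos without Eif2s3y counts and at 362 to 480 CPM in the 5 such wildtype embryos. With Eif2s3y counts, Xist was at most 4.08 CPM in knockout and 1.80 CPM in wildtype embryos. Among 260 X-linked genes tested, 30 were higher and 1 lower in knockout embryos (11.9% called, against 12.4% of the genes on other chromosomes), with a median log2 fold change of 0.31 on the X chromosome and 0.01 elsewhere. A term for the presence of Eif2s3y counts, added after the data were seen, brought the X-linked median to 0.08, with 20 higher and 6 lower. With that term 455 genes were higher and 346 lower over all chromosomes (11%), and 725 of the 903 calls were shared in the same direction. Trap1a (2.36), Mdm2 (1.55), Pmaip1 (2.63), Cdkn1a (1.16), Ccng1 (1.68), Arid2 (1.61), Pttg1 (1.28) and Dynap (-2.17) were still called, whereas Xiap (0.60, adjusted p = 0.0701) and Myc (0.94, adjusted p = 0.064) were not. The set that falls between the 2-cell and 4-cell stages then had 115 higher and 7 lower members, the p53 list 8 and 3, the spindle list 12 and 4, and the ribosomal protein genes 0 and 4. Of the X-linked genes called, 19 stayed higher with the term, among them Xlr3a (2.08) and Xlr3c (2.17), members of a multi-copy family with 88.7 to 99.2% of values not whole. In the 17 embryos with Eif2s3y counts, 148 genes were higher and 103 lower (3.24%). In the 13 embryos without, none was higher and 2 were lower (0.0261%; 877 genes at an unadjusted p under 0.05).

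**Figure D5:**
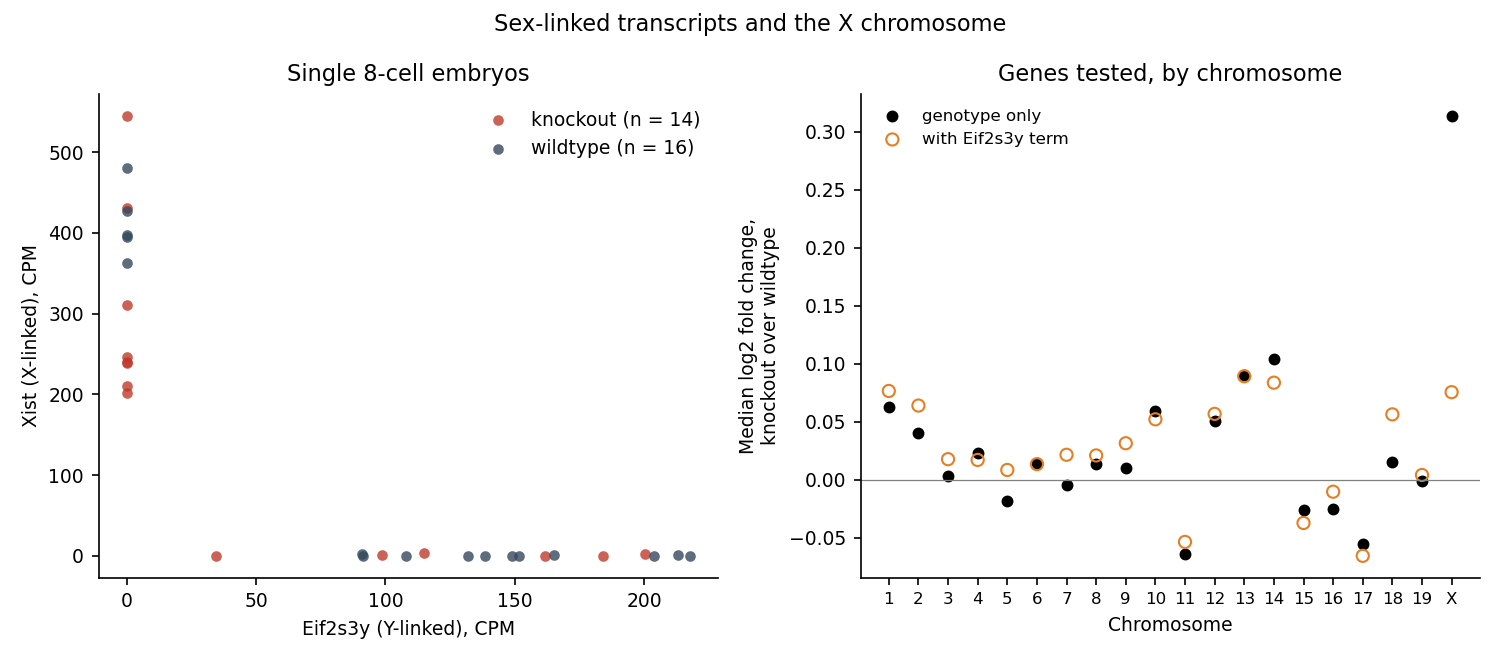
Left, Xist against Eif2s3y in CPM in each 8-cell embryo, knockout (n = 14) and wildtype (n = 16): the embryos fall into a group with Eif2s3y counts and Xist at 4.08 CPM or less, and a group without Eif2s3y counts and Xist at 201 CPM or more. Right, median log2 fold change of the genes tested on each chromosome, with genotype alone and with a term for Eif2s3y counts: the X chromosome lies at 0.31 with genotype alone and at 0.08 with the term.

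The 8-cell differences were set beside those of 4-cell embryos, which come from other libraries (16 knockout, 16 wildtype). At the 4-cell stage 1229 of 7478 genes were called (16.4%; 671 higher and 558 lower). Of these, 290 were called in the same direction at both stages, 162 higher and 128 lower, which is 32.1% of the 8-cell calls and 23.6% of the 4-cell calls, and 4 were called in opposite directions. Hif1an (-1.58 in 4-cell and -1.14 in 8-cell embryos), Jak2 (1.97 and 1.68), Arid2 (2.01 and 1.75) and Bcas3 (-0.84 and -0.73) were called at both. The difference between the stages was tested as an interaction of genotype and stage in 8908 genes: 85 genes (0.954%) had a higher and 81 (0.909%) a lower effect at the 8-cell stage, 1.86% in all. Of the 903 genes called at the 8-cell stage, 31 had such an interaction, so for the other 872 a difference between the stages was not called, which does not show that the effects are equal. Nupr1, a stress-response coregulator, had a log2 fold change of 0.44 in 8-cell embryos (adjusted p = 0.332) and -2.02 in 4-cell embryos, and Snrpn, an imprinted splicing gene, 0.11 and 2.21.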

How the data were processed

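Single-embryo polyA RNA was amplified by SMART-Seq, made into libraries with Nextera XT and sequenced as paired 150-base reads, per the labels. The labels name both a v4 and a stranded kit, and the sources used here do not give whether counting used strand. Per the submitters' processing notes, Trimmomatic 0.32, STAR 2.5.1a and featureCounts 1.5.1 were used with mm10. Values were deposited as estimated counts: among non-zero entries 30.56% were fractional, as arises when reads are split between loci, so multi-copy and overlapping genes are uncertain. Gene positions are those deposited with the counts, on mm10. The GENCODE M21 annotation was used only for gene identifiers and gene types.

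Counts were rounded. Genes that passed filterByExpr were tested with edgeR 4.0.16 (TMM factors, robust quasi-likelihood F test, R 4.3.3) on the 30 libraries, with Benjamini-Hochberg adjustment over all genes tested at a threshold of 0.05. The interaction with the 4-cell stage was fitted on 62 libraries of 4 groups. CPM are rounded counts over the library total, and ± is the SD over embryos. Single levels were compared by two-sided permutation tests (100000 resamples). No pair of libraries within a group agreed within sampling noise (chi-square per gene of at least 11.3). Intervals and floors (3 counts) cover counting error only. The procedure was tested on simulated counts.

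Members and gene lists were chosen with earlier results of these data known. Named genes are Kdm4a, the 15 higher and 15 lower called genes of largest fold with a mean of at least 20 CPM and a regular symbol, up to 4 called members of each list, the 5 of smallest p each way and 4 per direction of the interaction. Other called list members and genes of the stage sets were named after their values were seen. Alternatives were DESeq2 1.42.0, limma 3.58.1 (voom), other factors, filters, covariates and subsets, each library left out in turn and the replicate number as a block. Other steps ran in Python 3.11.15 (numpy 2.4.6, pandas 2.3.3, matplotlib 3.10.9, scipy 1.17.1).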

Additional observations from a re-analysis of the deposited data

Results flagged for a closer look

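The genotype effect differed between 8-cell and 4-cell embryos, by the interaction of genotype and stage at a Benjamini-Hochberg adjusted p under 0.05 (edgeR's quasi-likelihood test), in 85 genes with a higher and 81 genes with a lower effect at the 8-cell stage. Those taken by the rule for named genes, which leaves out clone names, are given with the difference of their log2 fold changes, 8-cell minus 4-cell. Positive differences were found for Arg2 (3.18), an arginase, Nupr1 (2.45), Eid2 (2.31), Mga (1.46), Twistnb (1.07), an RNA polymerase I subunit, Cir1 (1.01), Pttg1 (0.92), Haus3 (0.88), an augmin subunit of the spindle, Ylpm1 (0.85) and the chaperone cofactor Bag1 (0.69). Negative differences were found for Ccdc39 (-2.82), Snrpn (-2.11), Snurf (-2.02), which shares its locus with Snrpn, the ubiquitin-conjugating enzyme gene Ube2e3 (-1.62), the cullin gene Cul1 (-1.30) and Stk4 (-1.14). Arg2 was higher in 8-cell knockout embryos (1.59) and had -1.61 in 4-cell embryos, where it did not pass (adjusted p = 0.0597). Ube2e3 was called in both stages with opposite signs: 647, 1195 and 1534 CPM in knockout and 1098, 1614 and 2417 CPM in wildtype 8-cell embryos (log2 fold change -0.55), against 1.06 in 4-cell embryos. For Snrpn, Snurf and Cul1 the effect was called in 4-cell embryos only, and the 8-cell ranges of the genotypes overlapped almost fully. Snrpn (84.3%) and Snurf (74.0%) have mostly values that are not whole, so reads are shared between them.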

How the results depend on the processing

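Of the 172 named genes called, DESeq2 kept all 172, RLE factors 163, a term for the library total 162, library totals as the only scaling 157, limma 154, the Eif2s3y term 148, no filter 146, the replicate block 135, one fit of all 8 groups 120, and the fit with knockout replicate 7 99 of the 170 tested there. None reversed its sign, which the shared embryos make likely. Subsets by replicate number or by Eif2s3y counts gave fewer calls, and the part of their smaller size in this was not tested. Replicates 1 to 8 alone gave 18 higher and 19 lower genes (at least 2-fold: 15 and 12), replicates 9 to 16 alone 77 and 35 (66 and 23), embryos with Eif2s3y counts 148 and 103 (107 higher at least 2-fold), and embryos without 0 and 2 (0 and 2). No filter on low counts gave 1042 and 691 (827 and 412), one fit of all 8 groups 974 higher (628 and 169 at least 2-fold), and a filter of 10 CPM in 14 libraries 114 and 40 at least 2-fold. With knockout replicate 7 there were 218 lower and 478 at least 2-fold higher genes. The cause was not tested for these last settings. Leaving out each library in turn gave 410 to 536 higher and 341 to 426 lower genes (159 to 194 and 59 to 83 at least 2-fold). DESeq2 called 652 and 480. The interaction with the 4-cell stage gave 188 higher and 53 lower genes with replicate 7, 348 and 267 without a filter, 125 lower with limma, 3 and 2 in replicates 1 to 8, and 1 and 6 in replicates 9 to 16. The replicate number did not pair the samples (correlations of -0.12 to 0.16 between same-numbered embryos; 1 of 14 matched its own number best), and with it as a block 361 genes were higher and 334 lower (162 and 78 at least 2-fold). Depth limits low genes: at the shallowest knockout library a count of 0 allows up to 1.97 CPM.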

Other observations

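Metabolic and other housekeeping lists held scattered calls, beside 6.94% higher and 5.42% lower of all genes tested. Of 34 genes of one-carbon and amino-acid metabolism, 4 were lower and 2 higher. Gcsh, a subunit of the glycine cleavage system and one of the most abundant transcripts described here, lay at 4956, 6071 and 7719 CPM in knockout and 6865, 8102 and 9063 CPM in wildtype embryos, with 10 of 14 knockout embryos below the wildtype minimum (log2 fold change -0.39, SE 0.07, adjusted p = 8.66e-04, edgeR's quasi-likelihood test). Srm, the spermidine synthase gene, was lower (-0.92), as were the amino-acid transporter gene Slc7a6 (-0.65) and Atic of purine synthesis (-0.75). Of 73 mitochondrial ribosomal protein genes 7 were lower and 4 higher, with Mrps25 (1.14) and Mrpl55 (-0.84) the farthest apart. Of 69 nuclear genes of oxidative phosphorylation 4 were lower (5.80%) and Ndufs4, a complex I subunit, was higher (1.07; medians 79.2 CPM in knockout and 36 CPM in wildtype embryos). Most of the lower calls were near the threshold: those of Atp5f1, Ndufb3 and Cox4i1 were lost without any 1 of 22, 21 and 19 libraries. With the Eif2s3y term 2 were lower. Of 58 spliceosome genes 3 were higher, among them Srsf2 (0.74) and Srsf7 (0.54), and Prpf18 (-0.57) and Lsm2 (-0.48) were lower. Of 18 imprinted genes Usp29 (1.36) and Jade1 (1.96) were higher and Mcts2 lower (-0.73). Calls in the remaining lists were 1 higher and 2 lower of 19 genes of the 2-cell stage, 3 and 1 of 52 heat shock and chaperone genes, 2 and 3 of 45 proteasome genes, 2 and 0 of 27 genes of glycolysis and linked pathways, and 1 and 0 of 30 mitochondrially encoded genes.

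Genes near the targeted locus were called about as often as others: within 20 Mb of Kdm4a 10 of 206 genes were higher and 15 lower (12.1%, against 12.4% of all genes tested). Chromosomes 13 (31 higher and 7 lower of 309) and 14 (33 and 8 of 287) held more higher than lower calls. Their called shares, 12.3% and 14.3%, were near that of all genes tested. Others leaned the same way, such as chromosomes 12 (27 and 13 of 294) and 18 (19 and 8 of 193), while some, such as 17 (17 and 27 of 319), leaned the other way. These chromosomes were picked after their counts were seen. Genes detected at 100000 counts per library were 7140 ± 201 in knockout and 6991 ± 231 in wildtype embryos (SD; permutation p = 0.0738).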
